A study of Sus scrofa with 2 samples.

Results

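The S100 proteins are small calcium-binding proteins that act mainly by docking onto other proteins. S100A4, S100A6, S100A10 and S100A11 occur in many cell types and bind cytoskeletal proteins and annexins, and in T cells their transcripts are known from effector and memory states. S100A8, S100A9 and S100A12 are the calgranulins of neutrophils and monocytes, which are stored in large amounts and released as alarm signals.

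The members described here were 7 S100 genes chosen by name, with their levels in earlier results of these data known. The effector-type members are S100A4, S100A6, S100A10 and S100A11, and the myeloid-type members are S100A8, S100A9 and S100A12. Of the 7 symbols, 6 were found among the 21301 genes of the matrices, and S100A9 was not analysed here. Since the members were selected on their enrichment in invariant natural killer T (iNKT) cells, the contrast of the iNKT library with total thymocytes is a description and supports nothing. Mature, gamma-delta-like and dividing thymocytes are parts of the total library, so contrasts of iNKT cells with them are not independent of that selection. They too are descriptions.

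The thymi of 2 mixed-breed pigs, 22 weeks old and given no treatment, were the source of all cells, which were pooled over the animals ahead of library construction. One library held iNKT thymocytes, which are T cells that recognise lipids through a nearly fixed receptor and were enriched on magnetic beads by positive selection. The other held total thymocytes of the same thymi, and for both libraries viable cells were purified on a flow sorter. There was 1 library of each kind, so no difference has a replicate check, and all intervals are 95% intervals that cover counting error only. The labels do not say which cell came from which pig.

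After filtering, 11273 cells of the iNKT library and 8026 cells of the total thymocyte library remained, with a median of 4210 UMIs (unique molecular identifiers, which count RNA molecules) per iNKT-library cell and 2414.5 UMIs per total thymocyte. Barcodes found in both libraries numbered 41. Each library was clustered on its own with the S100 genes left out of the clustering genes, which gave 12 iNKT clusters and 14 clusters of total thymocytes. Levels are given as CPM, the summed UMIs of a gene per 1000000 UMIs of a group. Marker sums describe the groups and do not test their identity, since the markers were chosen with earlier results of these data known. The iNKT markers used here, ZBTB16, IL4, DDC and CD9, summed to 444 CPM in iNKT cells, against 2.30 CPM in gamma-delta-like thymocytes, where ZBTB16 and IL4 were at 0, and 14.6 CPM in mature thymocytes. Gamma-delta markers, from which the gamma-delta-like cluster was named, summed to 2126 CPM in that cluster, against 75.9 CPM in iNKT cells, where TRDC was at 0, and 69.2 CPM in mature thymocytes.

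The groups were 10811 iNKT cells outside the dividing cluster and a cluster led by B and plasma cell genes, 346 dividing iNKT cells, 537 gamma-delta-like thymocytes, 723 mature thymocytes, 1009 dividing thymocytes and 2684 double-positive-like thymocytes. Double-positive thymocytes are the immature cells that carry both CD4 and CD8. The mature thymocytes were a cluster named naive mature T-like, as 5 of 7 naive mature T markers were at least 2-fold up. CCR7, KLF2, the granzyme gene GZMH and the interferon-response gene ISG15 were among its 10 leading genes. The summed level of the 7 markers did not set it apart, at 2473 CPM against 2464 CPM in double-positive-like thymocytes. Double-positive markers summed to 865 CPM in it, against 6976 CPM in double-positive-like thymocytes.

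S100A4, a binding partner of non-muscle myosin that is known for its part in cell motility, reached 499 CPM in iNKT cells (493 to 506). It was at 211 CPM in dividing iNKT cells, 140 CPM in gamma-delta-like cells, 71.2 CPM in mature thymocytes, 5.30 CPM in dividing thymocytes and 0.749 CPM in double-positive-like thymocytes. No neighbours in that order had overlapping intervals, but the intervals cover counting error only. The order of gamma-delta-like and mature cells depended on the clustering. With a minimum of 200 genes their levels were 29.3 and 41.7 CPM, and with at most 5% mitochondrial UMIs 34.2 and 60.6 CPM. Immature and post-selection-like thymocytes had almost none. A UMI was held by 3 of 2684 double-positive-like cells and by 3 of 1064 cells of cluster 4, which was led by DNTT and PTCRA, genes of early thymocytes. In cluster 0, a cluster of post-selection-like thymocytes, 0 of 931 cells held one, which allows a level of up to 1.14 CPM.

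S100A6, also called calcyclin, followed the same order at the top, with 329 CPM in iNKT cells, 190 CPM in dividing iNKT cells, 76.2 CPM in gamma-delta-like cells and 33.6 CPM in mature thymocytes. Dividing thymocytes had 3.12 CPM (2.10 to 4.45) and double-positive-like thymocytes 5.49 CPM (3.44 to 8.31), and these intervals overlap. A UMI of S100A6 was seen in 41.7% of iNKT cells, 13.97% of gamma-delta-like cells, 4.15% of mature thymocytes and 0.782% of double-positive-like thymocytes. For S100A4 these shares were 43.8%, 11.2%, 4.84% and 0.112%. Free RNA in droplets can give such UMIs. It was not measured, and double-positive-like cells, which had almost no S100A4, stand in for its level in the total library. The median depth was 4166 UMIs in iNKT cells, 4578 in gamma-delta-like cells, 3211 in mature thymocytes and 1291 in double-positive-like thymocytes. With cells thinned to 2000 UMIs each and shallower cells left out, the shares with S100A4 were 34.5% of 10517 iNKT cells, 9.23% of 531 gamma-delta-like cells, 3.78% of 662 mature thymocytes and 0.205% of 487 double-positive-like thymocytes. At equal depth the shares with S100A4 in gamma-delta-like and mature cells were thus above that of double-positive-like cells. For S100A11 the share was 0.942% in gamma-delta-like cells, 6.34% in mature thymocytes and 1.23% in double-positive-like cells. The part of free RNA in these shares was not tested. The background of the iNKT library was not measured.

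S100A10, the partner of annexin A2 at the cell membrane and a member that has lost calcium binding, was detected most widely in iNKT cells. A UMI was present in 86.2% of iNKT cells, 92.2% of dividing iNKT cells, 10.2% of gamma-delta-like cells and 22.8% of mature thymocytes. Its level was 631 CPM in iNKT cells, 590 CPM in dividing iNKT cells, 31.0 CPM in gamma-delta-like cells, 131 CPM in mature thymocytes, 6.55 CPM in dividing thymocytes and 2.50 CPM in double-positive-like thymocytes. Here gamma-delta-like cells stood below mature thymocytes, the reverse of their order for S100A4 and S100A6.

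S100A11, which binds annexin A1, was the 1 effector-type member with a higher level in dividing than in other iNKT cells. It was at 354 CPM in dividing iNKT cells, 270 CPM in the other iNKT cells, 7.66 CPM in gamma-delta-like cells, 47.7 CPM in mature thymocytes, 17.3 CPM in dividing thymocytes and 6.49 CPM in double-positive-like thymocytes. The intervals of gamma-delta-like cells (4.68 to 11.8 CPM) and double-positive-like cells (4.24 to 9.51 CPM) overlap.

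**Figure D1:**
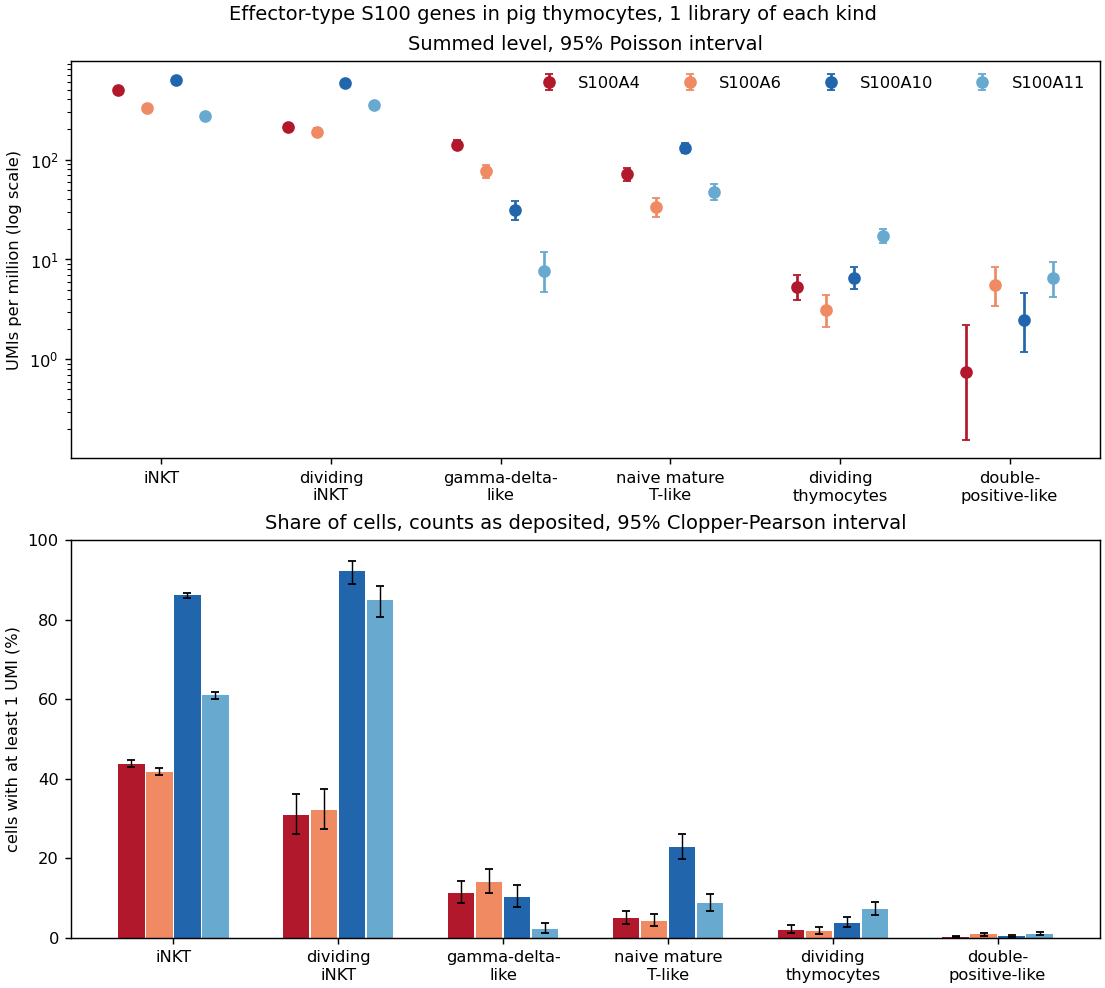
The upper panel plots the summed level of the 4 effector-type S100 genes in CPM on a log axis for 6 groups of cells, and the lower panel the share of cells with at least 1 UMI, with bars for the 95% intervals of counting error. S100A4 and S100A6 are higher in gamma-delta-like than in mature thymocytes and S100A10 and S100A11 lower. In double-positive-like cells S100A4 is at 0.749 CPM, the lowest point of the upper panel, and the others lie between 2.50 and 6.49 CPM.

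Among the smaller clusters of the total library, S100A10 and S100A11 were high without S100A4 and S100A6 in 1. The 43 cells of the B and plasma-like cluster had 396 CPM of S100A10 and 361 CPM of S100A11 but 9.90 CPM of S100A4 and 4.95 CPM of S100A6, the last 2 from 2 UMIs and 1 UMI. All 4 were present in the 95 cells of the cytotoxic T or NK-like cluster, which had 741 CPM of S100A10 (643 to 851), which was above the 631 CPM of iNKT cells, together with 114 CPM of S100A4, 117 CPM of S100A6 and 132 CPM of S100A11.

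In the whole libraries, iNKT-library cells had 481 CPM of S100A4 and total thymocytes 22.2 CPM, 21.7-fold higher (20.05 to 23.5). S100A6 was 24.2-fold higher, S100A10 21.6-fold and S100A11 16.1-fold. A gene was called when it was at least 2-fold different with at least 100 UMIs over both groups, and 11% of the 10436 genes tested were called higher in this contrast and 17.5% lower. The median log2 ratio of all tested genes was -0.24. The rule used this contrast, so nothing is read from the call of all 4 effector-type members.

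Set against mature thymocytes, all 4 effector-type members were called higher in iNKT cells, where 7.79% of genes were. The selection of members used the library that holds these cells, so nothing is read from the call of all 4. S100A4 was 7.01-fold higher (6.05 to 8.18), S100A6 9.79-fold (7.90 to 12.3), S100A10 4.83-fold (4.33 to 5.41) and S100A11 5.66-fold (4.72 to 6.84). The level in mature thymocytes came from very few cells. S100A4 was found in 35 of the 723 mature cells, and 7 of them, with at least 10 UMIs each, held 66.5% of its 176 UMIs. In gamma-delta-like cells 13 such cells held 52.5% of the UMIs, and in iNKT cells 757 such cells (7.002%) held 46.4%.

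The ratios depended on the clustering. With 15 instead of 30 principal components the mature cluster had 520 cells and 0 UMIs of S100A4, so that iNKT cells were at least 274-fold higher with mature cells set at the floor of 3 counts. That cluster had 4 UMIs of S100A6 and 1 UMI of S100A11. In the mature cluster used here, interferon-response markers summed to 1118 CPM, close to the 1033 CPM of iNKT cells. Leaving out mature cells with 5 or more interferon-response UMIs, an alternative added after seeing the data, kept 599 cells and gave a ratio of 9.52 for S100A4 and 13.6 for S100A6. The part of these cells in the result beyond those values was not tested.

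Against gamma-delta-like thymocytes, all 4 effector-type members were called higher in iNKT cells, where 10.4% of genes were. Here too nothing is read from the call of all 4, as these cells are part of the library used in the selection. S100A4 was 3.56-fold higher in iNKT cells (3.21 to 3.96) and S100A6 4.32-fold (3.75 to 4.99). S100A10 was 20.4-fold higher (16.4 to 25.6) and S100A11 35.3-fold (22.8 to 57.8). The gap between the first 2 and the last 2 members rested on how gamma-delta-like cells were grouped. With a minimum of 200 genes the ratios were 17.04 for S100A4, 21.3 for S100A6, 24.5 for S100A10 and 43.1 for S100A11, and with at most 5% mitochondrial UMIs they were 15.8, 30.3, 23.9 and 63.3. In those settings the gamma-delta-like group had 308 and 149 cells, with S100A6 at 15.4 and 11.9 CPM and S100A10 at 25.8 and 26.7 CPM, so that S100A6 no longer stood above S100A10. With cells gated by UMIs of marker genes, S100A4 was 14.5-fold higher in iNKT cells and S100A6 23.4-fold.

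Within the total library, S100A6 was called higher in gamma-delta-like than in mature thymocytes, at 2.27-fold (1.75 to 2.97), where 5.78% of genes were called higher. S100A10 was 4.21-fold lower (3.29 to 5.44) and S100A11 6.23-fold lower (3.86 to 10.6), where 4.0% of genes were called lower. S100A4, at 1.97-fold higher (1.64 to 2.37), missed the 2-fold rule. Only the direction of S100A10 held in all 13 alternatives that gave a value, where its ratio of gamma-delta-like over mature cells lay between 0.174 and 0.694. For S100A4 the ratio lay between 0.243 and 5.11, for S100A6 between 0.214 and 30.8, and for S100A11 between 0.0799 and 12.4.

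**Figure D2:**
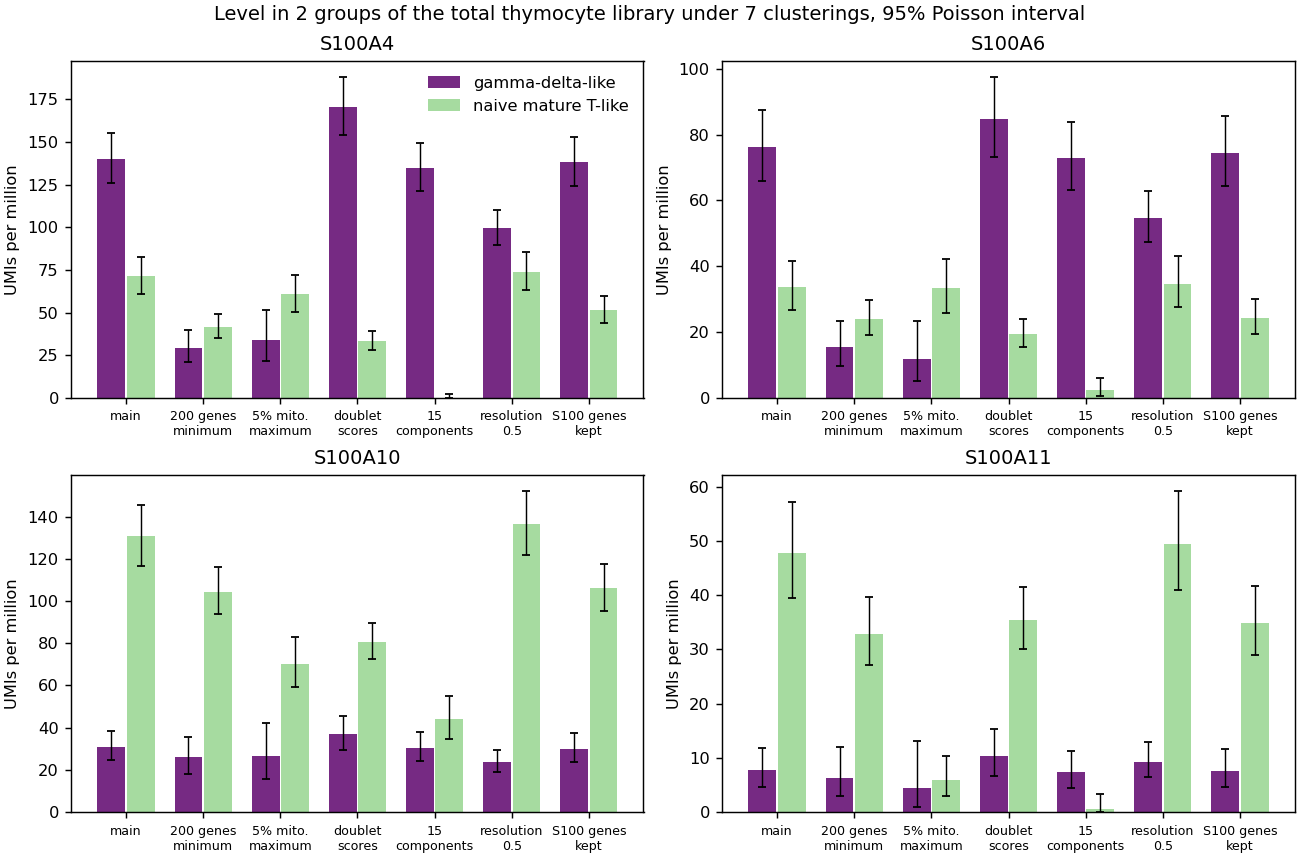
Each panel plots the level of 1 effector-type S100 gene, in CPM with 95% Poisson intervals, in the gamma-delta-like and the naive mature T-like group under 7 clusterings of the total thymocyte library. S100A10 is lower in gamma-delta-like cells under all 7, while S100A4 and S100A6 are lower in them under the gene minimum of 200 and the mitochondrial maximum of 5% and higher under the other 5.

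Dividing iNKT cells had less S100A4 than the other iNKT cells, with 211 and 499 CPM, which is 2.36-fold lower (2.18 to 2.56). S100A6 was at 0.579 of the level in the other iNKT cells, S100A10 at 0.934 and S100A11 at 1.31. S100A4 was the 1 effector-type member called lower, where 3.30% of genes were, and none was called higher, where 5.89% were. The call depended on which cells were grouped as dividing. With the highest doublet scores removed, the dividing cluster had 759 cells, 305 of them among the 346 used here, and the ratio was 0.995 for S100A4 and 1.004 for S100A6. With at most 5% mitochondrial UMIs the ratio for S100A4 was 0.505, which missed the 2-fold rule. The share of cells with a UMI of S100A4 was 30.9% in dividing and 43.8% in other iNKT cells, although dividing cells held more UMIs. With cells thinned to 2000 UMIs each, the shares were 16.8% and 34.5%. Y-linked RNA, described next, was lower in dividing iNKT cells too, and among cells with a Y-linked UMI the ratio for S100A4 was 0.676.

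Dividing iNKT cells still stood far above dividing thymocytes of the total library in a comparison added after seeing the data. S100A4 was 39.9-fold higher (29.9 to 54.1), S100A6 61.1-fold (42.3 to 91.4), S100A10 90.0-fold (70.0 to 118) and S100A11 20.5-fold (17.4 to 24.3), and 9.43% of genes were called higher. The sizes rest on few UMIs in dividing thymocytes, 51 for S100A4 and 30 for S100A6. With the highest doublet scores removed the ratios were 173 for S100A4, 193 for S100A6, 189.5 for S100A10 and 20.9 for S100A11. With at most 5% mitochondrial UMIs the dividing thymocytes held 1 UMI of S100A4 and 2 of S100A6, and the ratio was 149.6 for S100A10 and 34.9 for S100A11. Against double-positive-like thymocytes, the dividing thymocytes were called higher for S100A11 alone, at 2.66-fold (1.75 to 4.19), where 14.6% of genes were called higher. S100A4, S100A6 and S100A10 had too few UMIs for the rule. Of the 166 S100A11 UMIs in dividing thymocytes, 27 lay in a single barcode of myeloid character, described below, and without it the ratio was 2.23.

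The iNKT cells were not uniform. Over 10 clusters of iNKT cells, S100A4 ranged from 77.6 CPM in cluster 6 to 1265 CPM in cluster 1, a 16.3-fold span, and S100A6 from 27.6 CPM in cluster 6 to 612 CPM in cluster 0, a 22.2-fold span. S100A10 spanned only 3.22-fold, between 299 and 963 CPM, and S100A11 3.43-fold, between 103 and 353 CPM. Cluster 6, the lowest for all 4, was led by CCL5, XCL1, KLRK1 and GZMH, genes of cytotoxic lymphocytes. Its iNKT markers summed to 169 CPM, against 372 to 534 CPM in the other 9 clusters, its cytotoxic markers to 167 CPM and its double-positive markers to 82.7 CPM. Their part in these levels was not tested. Without cluster 6 the spans were 12.98-fold for S100A4, 5.62-fold for S100A6, 2.23-fold for S100A10 and 1.86-fold for S100A11.

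Y-linked RNA varied between the same clusters. EIF1AY, KDM5D and ZFY are housekeeping genes of the Y chromosome, and their summed level was 2.51 CPM in cluster 4 and 2.71 CPM in cluster 5, against 112, 116 and 113 CPM in clusters 0, 1 and 2. In the total library it lay between 25.7 and 150 CPM in every cluster. Which pig a cell came from is not given, so cell state and animal cannot be told apart for these clusters.

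S100A4 differed most between the 2 kinds of cluster. It was at 165 CPM in clusters 4 and 5 together (2790 cells), against 893 CPM in clusters 0, 1 and 2 (4045 cells), with a UMI in 20.4% and 66.7% of cells. S100A6 was at 226 and 505 CPM in the same order of clusters. S100A10, at 861 and 631 CPM, and S100A11, at 347 and 278 CPM, went the other way. For S100A10 cluster 4 had 963 CPM and cluster 5 had 718 CPM (694 to 742). The interval of cluster 5 overlapped that of cluster 0, at 697 CPM (677 to 716). Clusters 4 and 5 held the highest levels of S100A10 and S100A11 among iNKT clusters outside the dividing one. They differed from each other in S100A6, with 297 CPM in cluster 4, close to the median of 305 CPM over the 10 clusters, and 126 CPM in cluster 5. Cluster 2, on the other side of the contrast, had 268 CPM.

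The balance of S100A4 and S100A6 moved with Y-linked RNA as well. UMIs of S100A4 per UMI of S100A6 were 0.719 in cluster 4, 0.774 in cluster 5 and 0.566 in cluster 7, the 3 clusters lowest in Y-linked RNA. In the other 9 clusters of the iNKT library the quotient was between 1.11 and 2.82. Its interval excluded 1 in all but clusters 10 and 11.

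The split was repeated within clusters, by whether a cell held a Y-linked UMI. In cluster 11, the dividing cells, S100A4 was at 462 CPM in cells with a Y-linked UMI and 119 CPM in cells without one. In cluster 9 the values were 255 and 132 CPM, and in cluster 6 they were 197 and 35.4 CPM. In clusters 0, 1, 2 and 3 the values lay closer together, at 1023 and 906, 1167 and 1309, 421 and 486, and 473 and 491 CPM. In clusters 7, 8 and 10 they were 297 and 200, 892 and 616, and 595 and 214 CPM. Clusters 4 and 5 had only 13 and 12 cells with a Y-linked UMI. S100A6 in clusters 11, 9 and 6 was at 358 and 129, 115 and 108, and 30.4 and 26.6 CPM. In clusters 0, 1 and 2 a Y-linked UMI was held by 41.4%, 29.6% and 43.5% of cells. Cells without one thus need not lack Y-linked RNA. Restricted to cells with a Y-linked UMI, an alternative added after seeing the data, all 4 effector-type members still passed 2-fold in iNKT cells against total, mature and gamma-delta-like thymocytes, and S100A4 was 5.46-fold higher than in mature thymocytes and 4.87-fold higher than in gamma-delta-like cells. As the members were selected on enrichment in iNKT cells, these values are descriptions.

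**Figure D3:**
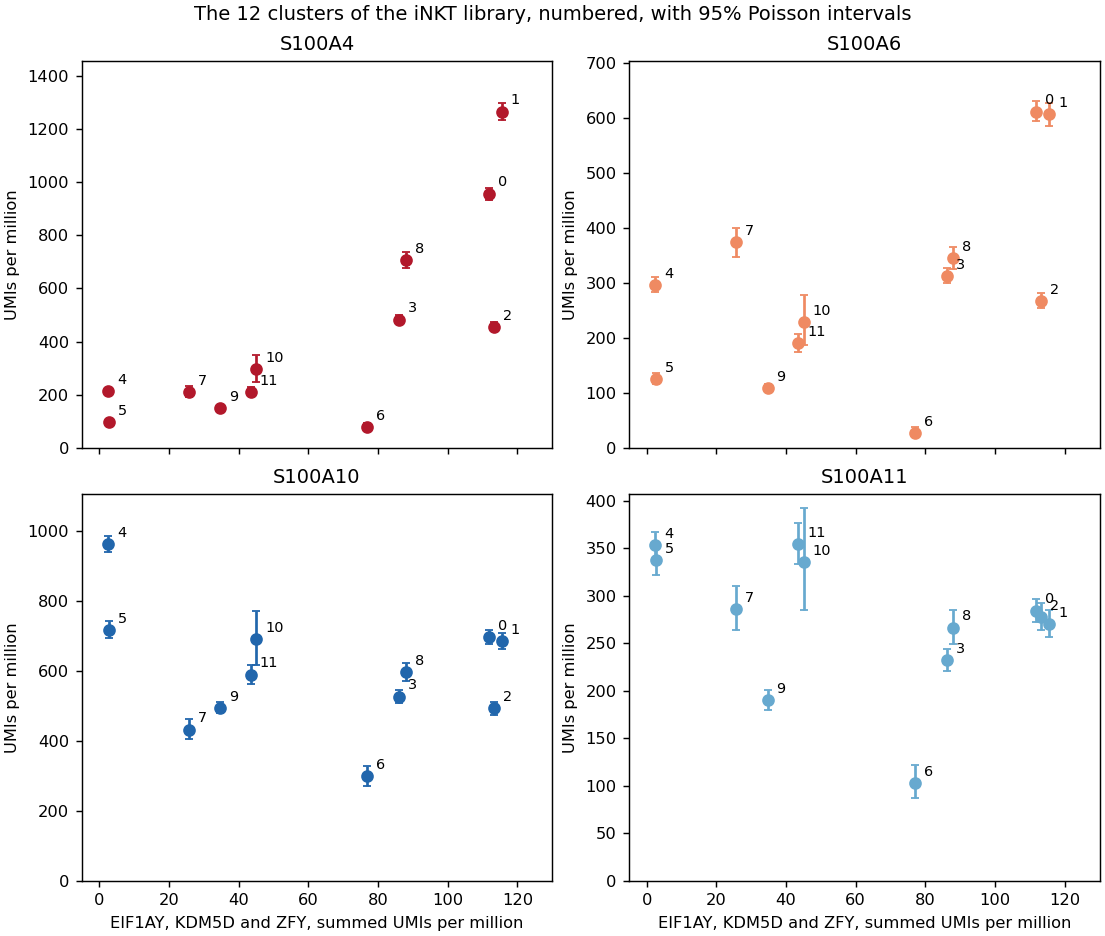
Each panel plots the level of 1 effector-type S100 gene in the 12 numbered clusters of the iNKT library (vertical axis, CPM with 95% Poisson intervals) against the summed level of the Y-linked genes EIF1AY, KDM5D and ZFY (horizontal axis, CPM). Clusters 4 and 5, at the left, are low for S100A4 and high for S100A10 and S100A11, and clusters 0 and 1, at the right, are highest for S100A4 and S100A6.

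Co-detection was measured in 10517 iNKT cells thinned to 2000 UMIs each, so that depth did not differ between cells. S100A6 was present in 56.4% of the cells with S100A4 (54.8 to 58.1) and in 17.8% of the cells without it (16.9 to 18.7), a ratio of 3.17. No other pair of effector-type members reached a ratio of 1.5. For S100A10 as the second gene this was nearly fixed in advance. It was present in 65.7% of cells without S100A4 and 65.2% of cells without S100A6, so the ratio could barely reach 1.5. With S100A10 as the given gene, where that limit is absent, the ratio was 1.22 for S100A4 and 1.35 for S100A6. S100A10 was present in 72.1% of cells with and 65.7% of cells without S100A4, and S100A11 in 41.3% and 37.8%. S100A4 and S100A6 were thus often found together, and S100A10 and S100A11 were found nearly as often without S100A4 as with it.

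The association of S100A4 with S100A6 was present inside clusters too. The ratio reached 1.5 in 11 of the 12 clusters of the iNKT library, from 1.35 in cluster 1, where both genes were common, to 13.5 in cluster 6, where both were rare. With S100A6 as the given gene it reached 1.5 in 10 of the 12. Among cells with a Y-linked UMI it was 2.39, and among those without one 3.40. The pair S100A10 and S100A11 reached a ratio of 1.5 in 0 of the 12 clusters. None of the 4 members was detected in 13.1% of the thinned iNKT cells, 1 in 32.1%, 2 in 30.6%, 3 in 17.2% and all 4 in 6.94%. In the total thymocyte library, 92.0% of 4774 thinned cells had none.

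**Figure D4:**
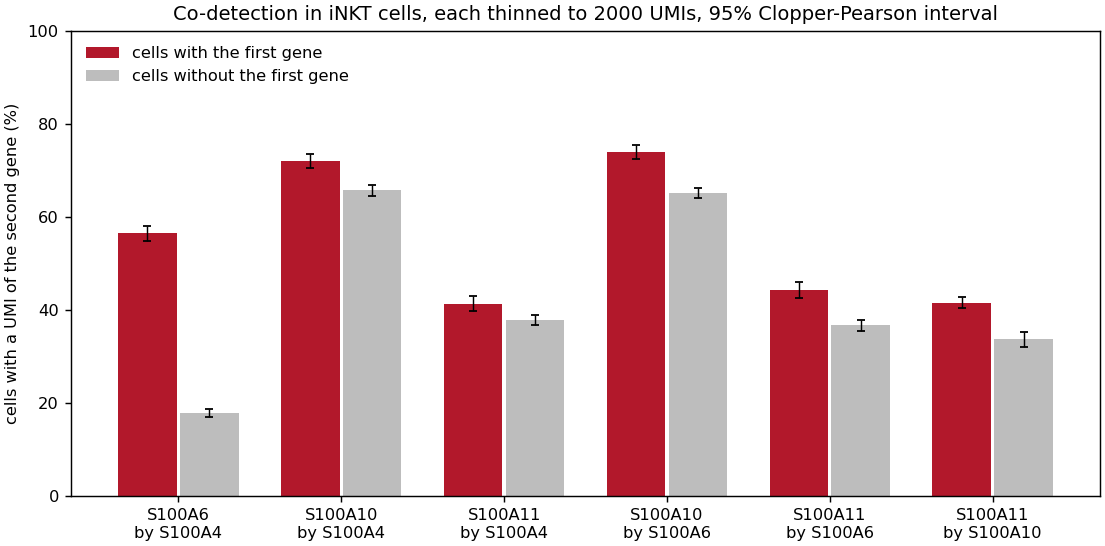
Bars give the share of thinned iNKT cells with a UMI of the second gene of each pair, in cells with and in cells without the first gene, with 95% Clopper-Pearson intervals. S100A6 by S100A4 is the 1 pair with a wide gap, 56.4% against 17.8%, and the other 5 pairs differ by less.

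The partners of S100A4 differed between the few positive cells of the total library. In gamma-delta-like thymocytes, S100A6 was present in 51.0% of the 49 thinned cells with S100A4 and 4.77% of the 482 cells without it, while S100A10 was present in 22.4% and 3.11% and S100A11 in 4.08% and 0.622%. In mature thymocytes, 25 thinned cells held S100A4, and S100A6 was present in 44.0% of them, S100A10 in 76.0% and S100A11 in 72.0%, against 1.10%, 13.8% and 3.77% of the 637 cells without S100A4. In these clusters the S100A4-positive gamma-delta-like cells carried S100A10 and S100A11 less often than the S100A4-positive mature cells did. The intervals for S100A11 (0.498 to 13.98% in gamma-delta-like cells, 50.6 to 87.9% in mature cells) do not overlap. The difference rests on few cells and on the clustering. With at most 5% mitochondrial UMIs, S100A11 was present in 1 of 5 such gamma-delta-like cells and 3 of 17 such mature cells, and with 15 principal components no mature cell held S100A4. Under the other 4 clusterings S100A11 was present in 4.0% to 10.0% of such gamma-delta-like cells and 70.8% to 75.0% of such mature cells.

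In the RefSeq annotation of the pig assembly Sscrofa11.1, which was used for the order of genes only, all members lie on chromosome 4. S100A4 and S100A6 are separated by S100A5, and S100A3 lies on the other side of S100A4. These close neighbours were almost silent: 8 UMIs of S100A5 were counted among iNKT-library cells and 1 UMI among total thymocytes, and S100A3 had 0 UMIs in both. S100A10 and S100A11 are direct neighbours, yet S100A11 was present in 41.6% of the cells with S100A10 and 33.6% of the cells without it. Among the other S100 genes, S100A1 was called higher, with 9.46 CPM among iNKT-library cells and 3.85 CPM among total thymocytes, which is 2.46-fold (1.995 to 3.05).

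The binding partners and receptors of S100 proteins were counted from a list. Of 10 with enough UMIs, 2 were called higher and 1 lower in the iNKT library than in total thymocytes, shares near the 11% and 17.5% of all genes. ANXA1, the annexin bound by S100A11, had 148 CPM among iNKT-library cells, against 10.9 CPM among total thymocytes, 13.6-fold higher. The level in total thymocytes includes 79 UMIs of the single barcode of myeloid character, described below, and no ratio without it is given. ANXA2, the annexin bound by S100A10, was at 206 and 59.8 CPM, 3.45-fold higher, and EMILIN1, a matrix glycoprotein, was 3.28-fold lower. ANXA1 and ANXA2 were also called higher in iNKT cells than in mature thymocytes, at 5.73-fold and 4.86-fold, and than in gamma-delta-like cells, at 3.95-fold and 2.66-fold. They were 2 of 9 listed genes with enough UMIs in both contrasts, beside 7.79% and 10.4% of all genes called higher. In each contrast 1 listed gene was called lower, ANXA6, another annexin, against mature thymocytes and EMILIN1 against gamma-delta-like cells. MYH9, the myosin bound by S100A4, was at 39.2 CPM in iNKT cells, 34.8 CPM in gamma-delta-like cells and 47.7 CPM in mature thymocytes.

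Gamma-delta-like cells were lower than iNKT cells in both S100A10 and its partner ANXA2. Against mature thymocytes they were lower in S100A10 only. ANXA2 was at 75.4 CPM in gamma-delta-like cells and 41.3 CPM in mature thymocytes. It was thus 1.83-fold higher, which missed the 2-fold rule, whereas S100A10 was 4.21-fold lower. No value of ANXA2 under the alternative clusterings is given here. In dividing thymocytes ANXA2 was at 108 CPM, against 10.98 CPM in double-positive-like thymocytes, with S100A10 at 6.55 and 2.50 CPM. In dividing iNKT cells ANXA2 was at 309 CPM, against 201 CPM in other iNKT cells, with S100A10 at 590 and 631 CPM.

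Genes that often accompany the effector-type members in memory T cells were counted from a list. It was chosen with earlier results of these data known, and CD9 on it is also an iNKT marker used here. Its counts and medians are therefore descriptions and not a test of enrichment. Against total thymocytes, 8 of 12 with enough UMIs were called higher in the iNKT library, beside 11% of all genes, and LGALS1, which encodes a galectin, was called lower. CD9, a tetraspanin, was 46.05-fold higher, ID2, a regulator of lymphocyte fate, 9.95-fold, CAPG, an actin-capping protein, 9.55-fold, and VIM, an intermediate filament protein, 5.99-fold. Against mature thymocytes 4 of 11 were called higher, beside 7.79% of all genes, led by CD9 at 11.8-fold and CAPG at 4.07-fold. The median log2 ratio of the list was 1.27 against total thymocytes and 0.49 against mature thymocytes, beside medians over all genes tested of -0.24 and -0.15.

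Across 25 clusters of at least 50 cells in both libraries, genes whose log2(CPM + 10) was among the most like that of S100A4 were ENSSSCG00000036892 (Pearson r = 0.949), IL6R (0.940), TOR4A, BIN1, CAPG, DENND3, MYO1G, PCBD1 and OTUD7A (0.921). Among the members r was 0.970 for S100A6, 0.906 for S100A10 and 0.888 for S100A11. These clusters share 2 libraries, and much of the likeness is the gap between those. Over the 12 iNKT clusters alone, r was 0.855 for S100A6, 0.359 for S100A10 and 0.310 for S100A11.

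The myeloid-type members came from almost a single cell barcode. S100A8 had 514 UMIs in the whole total thymocyte library, of which 506 (98.4%) lay in 1 barcode. S100A12, the calgranulin that binds the receptor AGER, had 881 UMIs, of which 872 (99.0%) lay in the same barcode. The 2 genes made up 23.0% of its 6004 UMIs. Outside it, 8 UMIs of S100A8 lay in 4 barcodes and 9 UMIs of S100A12 in 3. Of these, 5 UMIs of S100A8 and 7 of S100A12 lay in 1 barcode that the filter removed.

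The barcode rich in S100A8 and S100A12 carried transcripts of neutrophil granule proteins. It had 277 UMIs of PGLYRP1, 242 of LTF (lactoferrin), 128 of RETN and 52 of LCN2, with 684 UMIs of ENSSSCG00000006588, a gene without a symbol in the tables used. It had 36 UMIs of CST3, 17 of FCER1G and 5 of the myeloid transcription factor gene SPI1, and 7 of 11 myeloid markers in all, with CD14 and the T cell gene CD3E at 0. LYZ was at 0 too, but it had 0 UMIs in the whole total library, so nothing is read from it. Of the effector-type members the barcode held 27 UMIs of S100A11 and 0 of S100A4, S100A6 and S100A10. It had been placed among the dividing thymocytes, in cluster 5, so the 52.6 CPM of S100A8 and 90.8 CPM of S100A12 in that group describe 1 barcode. The barcode that the filter removed, with 11.1% mitochondrial UMIs, held some of the same transcripts. It had 20 UMIs of ENSSSCG00000006588, 6 of RETN, 2 of PGLYRP1 and 2 of LTF, with 5 of CD3E.

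In the iNKT library, S100A8 had 8 UMIs in 5 of 11273 cells and S100A12 had 1 UMI, that is 0.150 and 0.0188 CPM, against 17.8 and 30.6 CPM in the total library. The calls of both genes as lower in the iNKT library rest on the 1 barcode, and without it the count of such calls was 0. Gamma-delta-like cells had 1 UMI of S100A8 and 0 of S100A12, and mature thymocytes had 0 of both, which allows up to 1.21 CPM of each. In the iNKT library 4 of the 8 S100A8 UMIs lay in 1 cell of cluster 0, which also held 8 UMIs of CD3E, 22 of S100A4 and 4 of ENSSSCG00000006588, and the other 4 lay in 4 cells. With so few cells no share of co-detection with effector-type members is given. The genes most like S100A8 over clusters were RETN, ENSSSCG00000022258, ENSSSCG00000006588, PGLYRP1 and CCL17 (r of 0.992 or more), followed by RARRES1, LTF, CLEC11A, DEPTOR and PDK2, and these values rest on the cluster that holds the 1 barcode.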

How the data were processed

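The deposited values are raw UMI counts by gene and barcode from the 10x Genomics 3′ kit, as integers per the file headers. The submitters' processing notes list Cell Ranger 3.1 and Seurat 3.1, and the genome build was not given in the sources used here. Barcodes were kept when 500 or more genes were detected and 13 mitochondrial genes made up no more than 10% of UMIs. Scrublet marked 1 cell of the iNKT library and 0 of the total library, which is a failed call, so doublets were not removed. Each library was scaled to 10000 UMIs per cell, log-transformed and clustered (scanpy 1.11.5; 2000 variable genes without S100, mitochondrial, ribosomal and antigen receptor genes; 30 principal components; Leiden resolution 1). A cluster was named when at least 3 markers of a class were at least 2-fold up with a median log2 fold of at least 1 and no other class led it; this rule was made with the clusters in view and revised once. The members, markers and gene lists were chosen with earlier results of these data known.

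UMIs were summed per group and scaled to CPM, with exact Poisson intervals. Ratios have exact conditional binomial intervals and shares Clopper-Pearson intervals. UMIs in droplets can include free RNA: shares in double-positive-like cells stand in for its level. With 1 library of each kind no test across replicates was possible. Named genes were the members, listed genes at least 2-fold different with at least 100 UMIs (at most 6 a list), and the 10 genes most like S100A4 and S100A8, of which 1 is not reported here; genes of the 1 myeloid barcode and the Y-linked genes were chosen after their values were seen. The calculations were tested on simulated data. TMM factors came from edgeR 4.0.16.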

Additional observations from a re-analysis of the deposited data

How the results depend on the processing

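All 4 effector-type members stayed at least 2-fold higher in iNKT cells than in total, mature and gamma-delta-like thymocytes under every alternative run. This is a description, since the members were selected on their enrichment in iNKT cells. S100A4 over mature thymocytes lay between 3.53 and 14.6 in the 12 that gave a ratio, S100A6 between 5.02 and 136 and S100A11 between 4.82 and 461. Over gamma-delta-like thymocytes S100A4 lay between 2.85 and 17.04 and S100A6 between 3.85 and 30.3, and in dividing against other iNKT cells S100A4 lay between 0.328 and 0.995. In gamma-delta-like against mature thymocytes the direction reversed for S100A6 with a minimum of 200 genes (0.638), with at most 5% mitochondrial UMIs (0.357) and with cells gated by UMIs (0.214), and for S100A11 with 15 principal components (12.4). S100A4, which was not called there, lay between 0.243 and 5.11, so its direction was not stable either. The count of members called higher there, 1 as reported, was 0 with the minimum of 200 genes, the 5% limit, resolution 0.5 and the UMI gates, and 2 with the highest doublet scores removed, 15 components, S100 genes kept, equal weight per cell and few interferon-response UMIs. In dividing against double-positive-like thymocytes the count of 1 became 0 with the 5% limit, with thinning to 2000 UMIs and among cells with a Y-linked UMI, and 3 with a minimum of 20 UMIs. The count of 2 myeloid-type members called lower became 0 without dividing clusters, among cells with a Y-linked UMI and without the barcode rich in S100A12. Effector pairs co-detected at least 1.5-fold, 1 as reported, numbered between 0 and 2 within single clusters. The cause of each change was not tested. No paired analysis was possible because each kind of cell has 1 library. Levels of the myeloid-type members outside the 1 barcode rest on single-digit UMI counts.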
